A study of Mus musculus with 4 samples.

Results

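Small nucleolar RNA (snoRNA) genes were examined in TTchem-seq libraries of mouse DP thymocytes, developing T cells that carry both CD4 and CD8 (double positive). The genes were chosen by their summed count and comprised all rows of the deposited fragment count table named Snord, Snora or Scarna whose counts summed to at least 40 over the 4 libraries, which gave 94 of the 119 such rows and of the 24984 genes in the table. There were 56 C/D box genes (Snord), 29 H/ACA box genes (Snora) and 9 genes of small Cajal body RNAs (Scarna). Their levels are therefore given as a description. TTchem-seq labels RNA during a short pulse of 4-thiouridine (4sU), so that a count reflects newly made RNA, introns included, and not the stock of mature snoRNA in the cell. There were 2 libraries of Tox4 wild-type (WT) mice, with the genotype Tox4;F/F, and 2 of conditional knockout (cKO) mice, with the genotype Tox4;F/F;Lck+. All mice thus carried floxed Tox4 alleles, and the cKO mice also carried a Cre transgene driven, according to the study, by the proximal promoter of Lck, which acts from the DN3 stage of thymocyte development. The deleted part comprises exons 4 to 6. The study's methods describe its mice as gender-matched littermates of 6 to 8 weeks. The comparison asked whether transcription of these genes differed between the genotypes.

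snoRNAs are short noncoding RNAs that guide chemical modification of other RNAs. C/D box snoRNAs, named for their conserved C and D boxes, assemble with fibrillarin, Nop56, Nop58 and Snu13 and direct 2′-O-methylation of ribosomal RNA. H/ACA box snoRNAs assemble with dyskerin, Gar1, Nhp2 and Nop10 and direct conversion of uridine to pseudouridine. Small Cajal body RNAs carry one or both kinds of box and direct the same reactions on spliceosomal RNAs. In mammals most of these RNAs are not transcribed from a promoter of their own but are cut out of introns of host genes, many of which encode ribosomal proteins and translation factors. A few, such as the U8 snoRNA encoded by Snord118, which is needed for processing of the large-subunit ribosomal RNA precursor, are transcribed independently.

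The libraries held 42626473 and 48690591 fragments in WT and 38429786 and 39760312 in cKO, and 15693 to 18539 genes were detected in each. Tox4, the targeted gene, had 74.0 and 70.3 counts per 1000000 fragments (CPM) in WT and 59.3 and 57.2 CPM in cKO, and fell by 0.31 on the log2 scale (SE 0.10, adjusted p = 0.0453 by DESeq2). This call was not made by edgeR (adjusted p = 0.153) and was lost with any library left out (adjusted p = 0.196 to 0.792). The count is over the whole gene interval of 16364 bp, and the deleted exons were not counted apart. Of the 10 listed DP markers, all had a mean of at least 1 CPM, and DESeq2 called 2 lower and 0 higher in cKO, against 1.57% and 2.14% of all genes. Cd8a had 498 and 629 CPM in WT and 395 and 383 in cKO and fell by 0.54 (SE 0.10, adjusted p = 1.21e-05), or by 0.35 without WT replicate 2. Rag1 had 918 and 1169 CPM in WT and 882 and 802 in cKO and fell by 0.31 (SE 0.10, adjusted p = 0.0499), a call kept with WT replicate 1 left out and lost with any other library left out (adjusted p = 0.34 to 0.872). With WT replicate 2 left out the log2 fold change of Rag1 was -0.12, and with WT replicate 1 left out -0.49. edgeR called neither (adjusted p = 0.108 and 0.291). Cd4 had 621 to 715 CPM over the libraries and Dntt 248 to 321. The 5 B cell markers summed to 1.29 to 2.22 CPM, the 5 myeloid markers to 8.46 to 11.3, the 5 erythroid markers to 0.0130 to 0.465 and the 5 thymic epithelial markers to 0.654 to 1.13. Of the myeloid markers, Cd68 made up most of the sum, at 5.50 to 9.21 CPM. Lyz2 had 1.34 and 1.21 CPM in WT and 0.312 and 0.679 in cKO and Csf1r 0.891, 0.534, 0.156 and 0.327 in the same order, both lowest in cKO replicate 1 and without overlap between genotypes. Itgam went the other way, also without overlap, at 1.06 and 1.07 CPM in WT and 1.51 and 1.53 in cKO. Cd68 overlapped, at 7.67 and 5.50 CPM in WT and 9.21 and 7.52 in cKO, as did Mpo at 0.117 to 0.151. The 5 markers of mature single positive T cells summed to 428 to 491 CPM, and DESeq2 called 2 of the 5 higher and 1 lower, against the same shares of all genes. The part of these marker levels in the results was not tested. WT replicate 1 stood apart by Xist, which is transcribed from the inactive X chromosome of females, at 172 CPM against 0 to 2.36 in the other libraries, a difference that goes against gender matching of all 4. cKO replicate 1 stood apart by low counts of several other short RNAs, given beside the results they touch. In bulk libraries, fewer cells of a type and less RNA per cell cannot be told apart.

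The sequences of the C/D box RNAs with the highest count (Snord37) and of 3 with some of the lowest log2 fold changes at a mean of 1 CPM or more (Snord118, Snord104 and Snord49a) are given here with 15 bp on each side of the annotated gene, on GRCm38. Capitals mark the C box consensus TGATGA near the start and the D box CTGA near the end, where the exact letters were found.
Snord37 (chr10:81178946-81179028, plus strand, intron 4 of Eef2): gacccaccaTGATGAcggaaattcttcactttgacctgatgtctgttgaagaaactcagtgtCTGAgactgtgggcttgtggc
Snord118 (chr11:69073411-69073577, plus strand, in no host gene): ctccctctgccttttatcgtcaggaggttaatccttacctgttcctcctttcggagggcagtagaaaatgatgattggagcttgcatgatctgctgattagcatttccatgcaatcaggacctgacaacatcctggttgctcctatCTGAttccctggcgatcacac
Snord104 (chr11:106500976-106501078, plus strand, in no host gene of the table): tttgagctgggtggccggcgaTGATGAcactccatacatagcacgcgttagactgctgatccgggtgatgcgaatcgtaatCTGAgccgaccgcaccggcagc
Snord49a (chr11:62603445-62603536, plus strand, in 2410006H16Rik): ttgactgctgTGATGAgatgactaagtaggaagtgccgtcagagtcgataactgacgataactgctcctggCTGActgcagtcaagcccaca

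The 4 snoRNA genes of a single host, Rpl13a, are shown next, since they lie in introns of the same transcript. Capitals again mark the C and D boxes.
Snord32a (chr7:45127368-45127478, minus strand, intron 2 of Rpl13a): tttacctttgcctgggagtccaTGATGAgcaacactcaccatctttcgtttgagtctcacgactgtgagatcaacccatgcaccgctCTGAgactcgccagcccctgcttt
Snord33 (chr7:45126849-45126960, minus strand, intron 4 of Rpl13a): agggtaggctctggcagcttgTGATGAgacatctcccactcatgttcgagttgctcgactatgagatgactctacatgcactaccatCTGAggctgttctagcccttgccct
Snord34 (chr7:45126588-45126683, minus strand, intron 5 of Rpl13a): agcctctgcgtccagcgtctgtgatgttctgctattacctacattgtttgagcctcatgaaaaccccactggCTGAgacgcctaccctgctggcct
Snord35a (chr7:45126332-45126450, minus strand, intron 6 of Rpl13a): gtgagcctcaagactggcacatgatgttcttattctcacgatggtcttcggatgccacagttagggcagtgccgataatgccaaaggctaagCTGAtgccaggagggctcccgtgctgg

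For the H/ACA box class, Snora64, which had a low ratio to its host in both cKO libraries, and the gene inside the short noncoding gene Snhg8 are shown. Capitals mark the H box ANANNA in the middle part and the ACA near the end.
Snora64 (chr17:24720774-24720920, plus strand, intron 3 of Rps2): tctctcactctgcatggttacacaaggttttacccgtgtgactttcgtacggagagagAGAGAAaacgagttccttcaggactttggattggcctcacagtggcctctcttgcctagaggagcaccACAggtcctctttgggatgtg
Snora24 (chr3:123507922-123508081, minus strand, inside Snhg8): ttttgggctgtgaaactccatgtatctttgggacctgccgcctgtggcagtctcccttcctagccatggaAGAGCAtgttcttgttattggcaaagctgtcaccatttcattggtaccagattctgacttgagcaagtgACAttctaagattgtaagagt

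Searches for these letters separated the classes. TGATGA around the start together with CTGA around the end was found in 30 of 55 C/D box genes (54.5%), in 0 of 29 H/ACA box genes and in 0.425% of 5642 windows of the same length in the host genes, all read on the strand of the gene. ANANNA with ACA was found in 19 of 29 H/ACA box genes (65.5%), in 0 of 55 C/D box genes and in 2.91% of 1888 such windows. These matches are a description of the letters in each window. Boxes that vary by a base or lie away from the annotated ends were not counted, and in Snord118, Snord34 and Snord35a of the genes shown only the D box matched. The annotated C/D box genes had a median length of 68 bp (22 to 221) and the H/ACA box genes one of 120 bp (62 to 184). Several intervals were shorter than the RNA they name, such as Snord14a at 22 bp and Scarna9 at 42 bp. Within numbered families, Snord1b and Snord1c were 97.4% identical over their alignment and Snord88a and Snord88c 84.5%, so counts of these pairs may be exchanged in mapping. Leaving out the pair with Snord14a, the other pairs were 56.9% to 78.1% identical over the annotated intervals. Some of these intervals are also short, such as Snord42a and Snord45b at 45 bp, so the identities depend on the annotation.

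The snoRNA genes lay on 20 chromosomes, with 15 of them on chromosome 11 and 14 on chromosome 7. A same-strand host gene of at least 1000 bp contained 85 of the 94, in 61 different hosts. Of these hosts, 44 held 1 member, 12 held 2, 3 held 3, and Rpl13a and Snhg12 held 4 each. Snora24 and Snora78 lay inside the shorter noncoding genes Snhg8 (785 bp) and Snhg9 (435 bp). The table had no same-strand gene around Snord118, Snord104, Snord89, Snord14a, Scarna2 and Scarna17, and Snord58b was listed at 2 loci. By RefSeq, 81 of the 85 hosted genes were intronic in every curated transcript that spans them, 66 of these in protein-coding genes and 15 in long noncoding RNA genes. By the product of the host, 26 genes lay in 18 ribosomal protein genes, 9 in 7 genes of translation factors or ribosome-associated proteins (such as Eef2, Eif4a2 and Rack1), 8 in 5 genes of nucleolar proteins (such as Ncl and Nop56), 18 in 10 noncoding genes and 24 in 21 other genes. The 3′ end of C/D box genes lay a median of 86 bp before the 3′ splice site of the intron, and 32 of 48 lay between 60 and 100 bp from it. The median was 169 bp for 27 H/ACA box genes, 8 of which lay in that range, and 249 bp for 7 Cajal body RNA genes.

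**Figure D1:**
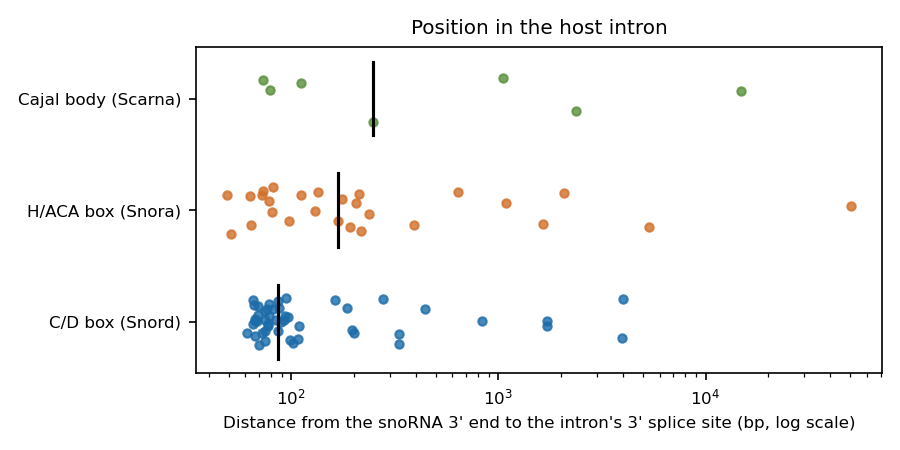
Distance in bp, on a log scale, from the 3′ end of each snoRNA gene to the 3′ splice site of its host intron, by class. Points are genes with vertical jitter and black lines are medians (86, 169 and 249 bp), and the C/D box genes gather between 60 and 100 bp.

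All 94 genes were counted at low levels. The lowest count of any of them in a library was 5 fragments and the highest 195. Together they took 121 and 106 CPM in WT replicates 1 and 2 and 86.1 and 95.7 CPM in cKO replicates 1 and 2. The C/D box class held 58.4% of these fragments, the H/ACA box class 32.9% and the Cajal body class 8.71%. Snord37, in the gene of elongation factor Eef2, had the most fragments, with 161.5 and 188.5 in WT and 134 and 114.5 in cKO. Snord118 followed with 195, 167, 85 and 98 fragments in the same order, and Snora81, in the translation initiation factor gene Eif4a2, with 149.5, 160, 115.5 and 112.5. Neither of the cKO libraries, which held fewer fragments in all, reached the WT libraries in fragments for any of these 3 genes. In CPM, both cKO libraries lay below both WT libraries for 24% of all genes with a mean of at least 1 CPM. Next in mean CPM came Snord104 (2.94 CPM), Scarna13 (2.73), Snora68 (2.71), Snord34 (2.71), Snord32a (2.69), Snora65 (2.61) and Snora64 (2.48), the last 4 of them in the ribosomal protein genes Rpl13a, Rpl12 and Rps2. These 10 genes made up 28.1% of all snoRNA fragments, and 38 of the 94 reached a mean of 1 CPM. Just inside the count minimum lay Snord93, Snord19 and Snord8, with 41, 46 and 47 fragments in all, and just outside it Snord67, Snord47 and Snord92, with 39.5, 34.5 and 32.

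Most of these genes overlapped a host gene, and many counts were fractional. The study's methods name gene counts from STAR and the processing notes also name featureCounts, and the options of the counting step are not given in the sources used here, so how a fragment over several features was counted is read from the values alone. Among genes of 1 locus with a summed count of at least 40, 91.0% of those overlapping another gene on the same strand had a fractional count, against 19.3% of those overlapping a gene on the other strand only and 22.2% of those overlapping none. For 61 of the 85 hosted snoRNA genes the counts in all 4 libraries were multiples of 0.5 (within 0.006), as division between the snoRNA and its host would give, and counts in Rpl13a were in smaller fractions. Scarna13, Snord33, Snora34, Scarna3a and Scarna3b also overlapped a miRNA gene on the same strand. If fragments were divided in this way, a snoRNA count mixes fragments of the host precursor with those of the snoRNA itself. Per bp, the fragment density of a snoRNA gene was a median of 1.22 times that of its host and exceeded it for 58 of 85 genes. It was 1.54 times in 452 other genes inside a same-strand gene and 2.38 times in the 241 of these under 300 bp, so other nested genes also had a density above that of their host.

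The density relative to the host ranged from 0.178 to 9.69. It was highest for Scarna9 in Cep295 (9.69), Scarna10 in the condensin gene Ncapd2 (6.23), Snora15 in Cct6a (4.5), Snord71 in Ap1g1 (4.26) and Snord45b in Rabggtb (4.23). Each snoRNA count was also doubled, as for fragments divided between 2 features, and set against the host count per bp. Expressed in this way, the fragments of Scarna10 equalled those of 884 bp of its host and those of Scarna9 814 bp. The median of this doubled measure was 233 bp over the 61 genes with counts in multiples of 0.5. Scarna9 and Scarna10 are annotated at 42 and 71 bp, and the table gives Cct6a a length of 59088 bp, so these ratios depend on the annotation. Low ratios were found in Snora33 (0.178, in Rps12), Snora62 (0.194, in Rpsa), Snord14c (0.290, in Hspa8) and Snord4a (0.322, in Rpl23a). Of these 4 hosts, 3 encode ribosomal proteins and Hspa8 a chaperone. Scarna13 had the largest count relative to a host, with 468 fragments against 935 for Snhg10, a ratio of 50.1%. For the 4 snoRNA genes of Snhg12 together the ratio was 23.7%. These are ratios of separate counts and, if fragments were divided, not shares of the host count. Over the 85 pairs, log2 mean CPM of snoRNA and host correlated with a Pearson r of 0.31 and a Spearman rho of 0.28, as a description of genes that share libraries and may share fragments.

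In the comparison of genotypes, no snoRNA gene was called higher or lower in cKO by DESeq2, where a call required an adjusted p under 0.05, a change of 1.2-fold or more and an average level of 1 CPM. Over all 11625 genes with that level, 2.14% were called increased and 1.57% decreased. edgeR called 0.413% and 0.086% and limma voom 0.43% and 0.0946% in the same directions, and 0 of the 94 by either. With 0.05 as unadjusted threshold, 2 of the 94 genes were lower and 0 higher by DESeq2, against 5.56% and 6.26% of all genes with a summed count of at least 40. By edgeR 4 were lower and 0 higher, against 6.62% and 7.36%. These counts are near or below the background. DESeq2 gave an adjusted p to 14 of the 94 genes, as independent filtering set the others aside for low counts. With that filtering off, all 94 had one and the lowest was 0.479. The lowest by edgeR was 0.257 and by limma voom 0.288. Without its low count filter, a setting chosen after seeing the data, edgeR gave 8 genes lower and 0 higher at the unadjusted threshold, against 8.58% and 9.88% of all genes, and the lowest adjusted p was 0.0546, for Snord118. In all, 0 genes were called under every setting run.

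Snord118 had 4.57 and 3.43 CPM in WT and 2.21 and 2.46 in cKO. The cKO libraries both lay below the WT libraries, with means of 4.00 ± 0.809 and 2.34 ± 0.179 CPM (SD, n = 2). The log2 fold change was -0.78 (SE 0.36, 95% interval -1.48 to -0.07), and it did not pass the test (DESeq2 adjusted p = 0.279, unadjusted p = 0.0318). Snord104, a C/D box gene, had 4.34 and 3.12 CPM in WT and 2.39 and 1.91 in cKO, again without overlap. Its log2 fold change was -0.79 (SE 0.38, 95% interval -1.54 to -0.05), which did not pass either (DESeq2 adjusted p = 0.301, unadjusted p = 0.0368). Both genes stood in no host gene of the table (RefSeq places Snord104 in Gm36220, which the table lacks), so their counts were not divided with a host, and all were whole numbers. With any 1 library left out, the log2 fold change of Snord118 ranged from -0.96 to -0.56 and that of Snord104 from -1.01 to -0.55.

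**Figure D2:**
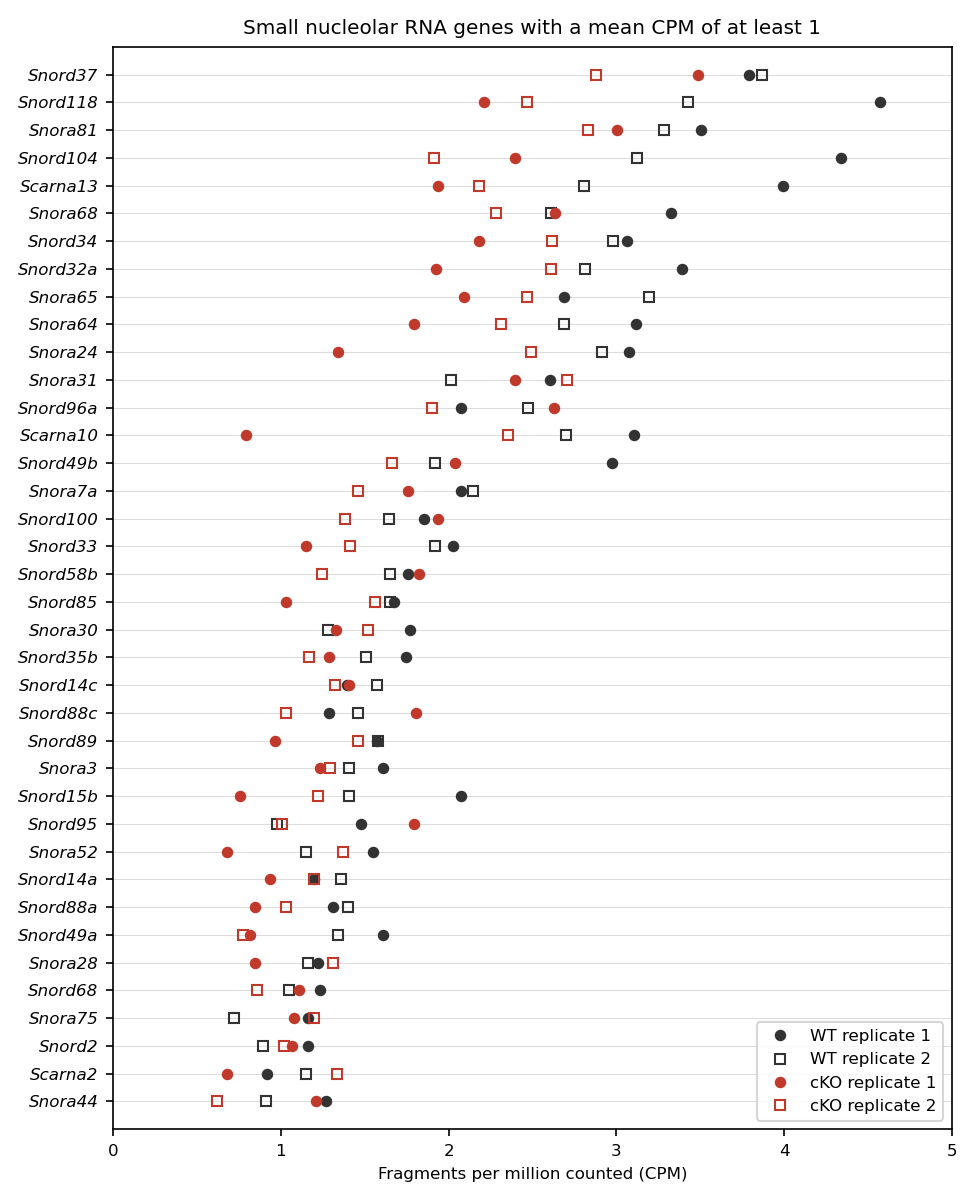
CPM in each of the 4 libraries for the 38 snoRNA genes averaging 1 CPM or more, ordered by mean, with WT in black and cKO in red and replicate 1 as filled circles and replicate 2 as open squares. Snord118 and Snord104 have WT values of 3.12 to 4.57 and cKO values of 1.91 to 2.46, and Scarna10 has a single low value in cKO replicate 1.

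The fitted changes of the snoRNA genes leaned to lower values in cKO, although no single gene passed. The median log2 fold change was -0.27 over the 94 genes, with quartiles of -0.51 and -0.01, and 72 of 94 were below 0. Over all genes with a summed count of at least 40 the median was -0.00253 and 50.6% were below 0. Over 290 other genes under 300 bp with such a count it was -0.16, with 179 below 0, and -0.11 without cKO replicate 2. The median was -0.27 for the C/D box class, -0.27 for the H/ACA box class and -0.24 for the Cajal body class. The first was -0.12 without WT replicate 1, the second -0.18 without WT replicate 1 and -0.51 without cKO replicate 2, and the third turned to 0.04, with 4 of 9 below 0, without cKO replicate 1 and was -0.62 without cKO replicate 2. The median was -0.30 over the 38 genes with a mean of at least 1 CPM, 34 of which were below 0. Both cKO libraries lay below both WT libraries in CPM for 37 of 94 genes (39.4%) and above them for 6 (6.38%), against 23.4% and 23.8% of all genes with a summed count of at least 40 and 30.0% and 11.4% of the 290 other genes under 300 bp. Of the 38 genes with a mean of at least 1 CPM, both cKO libraries lay below both WT libraries for 21 and above them for 0, against 24% and 24.9% of all genes at that level. Genes of the same host share a precursor, so these counts are not of independent genes, and no test was made of the list.

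The libraries within a genotype also differed. The median difference between WT replicate 2 and WT replicate 1 was -0.19 on the log2 scale over the 94 genes, and that between cKO replicate 2 and cKO replicate 1 was 0.22, against 0.01 and 0.00 (-1.36e-05) over all genes with a summed count of at least 40. The shift between genotypes was thus little larger than the shift between replicates. Of the 94 genes, 45 had their lowest CPM in cKO replicate 1, 24 in cKO replicate 2, 18 in WT replicate 2 and 7 in WT replicate 1, and 49 had their highest in WT replicate 1. The median fell by 0.17 without WT replicate 1 and by 0.37 without cKO replicate 2, the smallest and largest values with 1 library left out. The summed level was 114 ± 10.8 CPM in WT and 90.9 ± 6.79 CPM in cKO (SD, n = 2), a log2 ratio of -0.32 that ranged from -0.42 to -0.22 with 1 library left out. By class, it was -0.32 for C/D box genes, -0.30 for H/ACA box genes and -0.41 for Cajal body genes. Without WT replicate 1 the value for H/ACA box genes was -0.19. That for Cajal body genes rested on cKO replicate 1, without which it was -0.0056: the summed Cajal body level was 10.5 and 9.78 CPM in WT, 5.12 in cKO replicate 1 and 10.1 in cKO replicate 2.

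**Figure D3:**
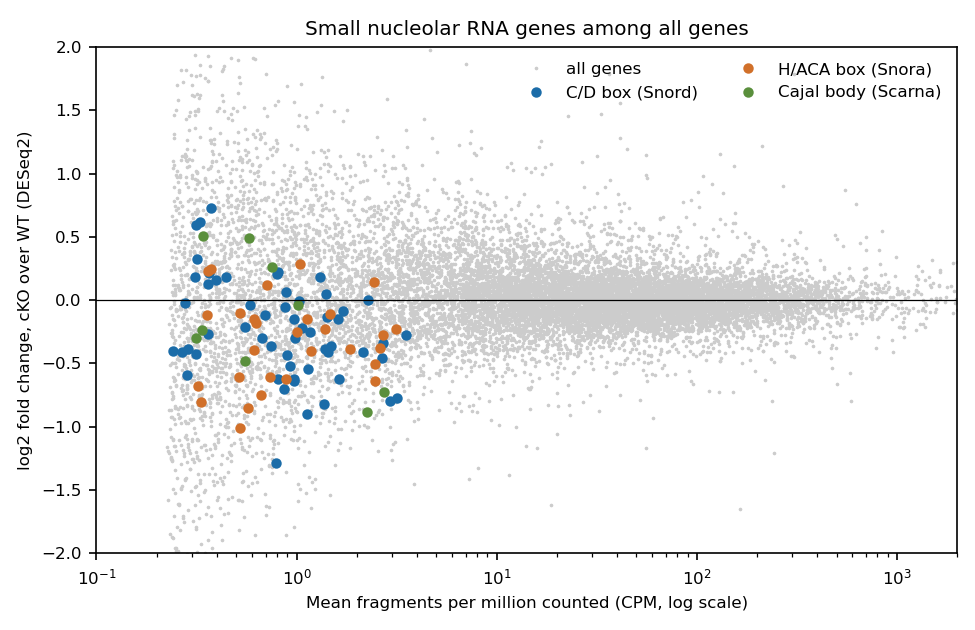
log2 fold change (cKO over WT, DESeq2) against mean CPM on a log scale for the 94 snoRNA genes in 3 colours by class, with all genes of a summed count of at least 40 in grey. All snoRNA points lie at the low end of the levels, 72 of the 94 below 0 and within the scatter of other genes of that level, and 54 genes beyond a log2 fold change of 2 in size are outside the axis.

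By host, the snoRNA genes in ribosomal protein genes had a median log2 fold change of -0.39, with 24 of 26 below 0, and their 18 hosts one of -0.14, with 17 of 18 below 0. Those in noncoding hosts had a median of -0.35 (15 of 18 below 0), and their 10 hosts -0.10, or -0.13 to -0.06 with 1 library left out. The lean in noncoding hosts rested on WT replicate 1, without which the median of these genes was -0.03 with 9 of 18 below 0. The medians were -0.13 for those in nucleolar protein genes (4 of 8 below 0), -0.00341 for those in translation factor and related genes (6 of 9) and -0.14 for those in other genes (15 of 24). The 9 genes without a host of at least 1000 bp had a median of -0.38, with 8 below 0. With 1 library left out, the median ranged from -0.47 to -0.32 for the ribosomal protein group and from -0.26 to -0.09 for its hosts, the latter being -0.21 without WT replicate 1 and -0.26 without cKO replicate 1. It was -0.01 without cKO replicate 1 for the nucleolar group. For the translation factor group it was -0.18 without WT replicate 2, -0.11 without WT replicate 1, -0.04 without cKO replicate 1 and 0.03 without cKO replicate 2. For the other genes it was -0.06 without WT replicate 1, and for the 9 without a host -0.22 without cKO replicate 1 and -0.65 without cKO replicate 2. Differences between these groups were not tested.

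Among genes with a mean of at least 1 CPM, the lowest log2 fold changes were those of Snord49a, Scarna10, Snord15b, Snord104, Snord118 and Scarna13. Snord49a, in the noncoding gene 2410006H16Rik, had 1.61 and 1.34 CPM in WT and 0.815 and 0.771 in cKO, a log2 fold change of -0.90 (SE 0.58). Its neighbour in the same host, Snord49b, had -0.41 (SE 0.44), and another neighbour, Snord65, -0.12 (SE 0.74). Scarna10, whose RNA guides modification of a spliceosomal RNA, had 3.11, 2.70, 0.794 and 2.35 CPM in WT replicates 1 and 2 and cKO replicates 1 and 2. The low value stood in cKO replicate 1, and the log2 fold change of -0.88 (SE 0.51) was -0.29 without that library. Scarna13, in Snhg10, had 3.99 and 2.81 CPM in WT and 1.93 and 2.18 in cKO, with a log2 fold change of -0.73 (SE 0.39, adjusted p = 0.400 by DESeq2) that was -0.46 without WT replicate 1. Snord15b, in Rps3, had 2.08 and 1.41 CPM in WT and 0.755 and 1.22 in cKO, with a log2 fold change of -0.82 (SE 0.56) that was -0.52 without WT replicate 1 and -0.51 without cKO replicate 1. Its partner Snord15a in the same host was below a mean of 1 CPM, at 1.34, 0.904, 0.247 and 0.666 CPM, and again lowest in cKO replicate 1.

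At the other end, 4 of the 38 genes with a mean of at least 1 CPM had a log2 fold change above 0, and none of the 38 had both cKO libraries above both WT libraries. Snora75, in the nucleolin gene Ncl, had 1.16 and 0.719 CPM in WT and 1.08 and 1.19 in cKO, a log2 fold change of 0.28 (SE 0.61). Snord95 and Snord96a, both in Rack1, had 0.18 (SE 0.57) and -0.00226 (SE 0.42). Snora31, in the translationally controlled protein gene Tpt1, had 0.15 (SE 0.40), Snord88c 0.05 (SE 0.54) and Snord2, in Eif4a2, -0.00341 (SE 0.60). The standard errors of all 94 genes ran from 0.34 to 1.26, with a median of 0.68, against a median of 0.18 over all genes with a summed count of at least 40. Even for Snord37, the most precisely measured, the 95% interval of the log2 fold change ran from -0.93 to 0.38.

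The change of each snoRNA gene relative to its host was then taken as the difference between genotypes of the mean log2 ratio of the snoRNA count to the host count. The median over the 85 hosted genes was -0.14, with 58 below 0 (68.2%). It was -0.01 with 54.6% below 0 in 452 other genes inside a same-strand gene and -0.09 with 58.9% below 0 in the 241 of these under 300 bp. The medians of the deviation of each library from the mean of a gene were 0.21 and -0.05 in WT and -0.18 and 0.04 in cKO, a spread between replicates of 0.17 (SD), so that the median shift was smaller than that spread. Without WT replicate 1 it turned to 0.035, and without WT replicate 2 it was -0.31. Both cKO ratios lay below both WT ratios for 18 of 85 genes (21.2%) and above them for 9 (10.6%), against 22.6% and 13.1% of the 452 other nested genes. Both shares are near this background. The snoRNA and host changes correlated weakly, with a Pearson r of 0.20 and a Spearman rho of 0.17 over genes that may share fragments.

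Among genes with a mean of at least 1 CPM whose ratios did not overlap, the largest falls relative to the host were in Scarna10 (-1.11), Snord49a (-0.76), Snora64 (-0.46) and Snord88a (-0.46). For Scarna10 the log2 ratios to Ncapd2 were -5.08 and -5.64 in WT and -7.20 and -5.75 in cKO, so the second cKO library was close to the second WT library. For Snord49a they were -3.60 and -3.90 in WT and -4.55 and -4.46 in cKO, a gap between genotypes wider than that between replicates. For Snora64, an H/ACA gene in the ribosomal protein gene Rps2, they were -4.20, -4.68, -4.98 and -4.83. Snord88a had -5.17, -5.19, -5.71 and -5.58, while Snord88c in the same host and 84.5% identical had -5.20, -5.13, -4.62 and -5.58, with the cKO libraries on either side. Non-overlapping rises came to 2 genes, Snora75 (0.38) and Snord96a (0.29). The log2 ratios of Snora75 to Ncl were -6.65 and -7.14 in WT and -6.47 and -6.57 in cKO. Snord96a had -5.84 and -5.66 in WT and -5.28 and -5.63 in cKO, in a host, Rack1, that fell.

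**Figure D4:**
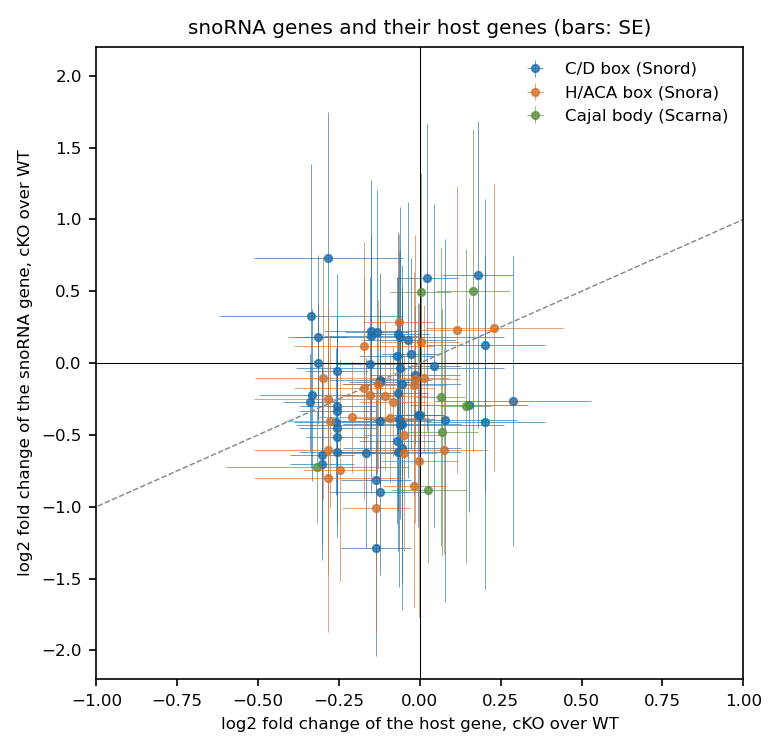
log2 fold change (cKO over WT, DESeq2) of the 85 snoRNA genes with a host against that of the host, coloured by class, with bars of 1 SE and a dashed line where the changes are equal. The hosts lie close to 0 with short bars, the snoRNA genes scatter more widely with long bars, and most points are in the lower part of the plot.

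The 4 snoRNA genes of Rpl13a, which encodes a large-subunit ribosomal protein, had log2 fold changes of -0.45 (Snord32a), -0.62 (Snord33), -0.34 (Snord34) and -0.30 (Snord35a), with SE of 0.38 to 0.63. For 3 of the 4, both cKO libraries lay below both WT libraries in CPM. The same held for 23.4% of all genes with a summed count of at least 40 and for 39.4% of the 94. The 4 share a precursor, so they are not independent. The host itself had -0.26 (SE 0.12, DESeq2 adjusted p = 0.285). With 1 library left out these changes ranged from -0.70 to -0.24 for Snord32a, -0.79 to -0.47 for Snord33, -0.48 to -0.20 for Snord34, -0.57 to -0.07 for Snord35a and -0.37 to -0.13 for the host. In the noncoding gene Snhg12, Snora16a, Snora44 and Snora61 had -0.80, -0.25 and -0.61 and Snord99 had 0.73, with SE of 0.64 to 1.07. Their host had -0.28 (SE 0.23), with -0.53 if cKO replicate 2 was left out and -0.07 if cKO replicate 1 was. With 1 library left out the change ranged from -1.21 to -0.25 for Snora16a, from -0.78 to 0.14 for Snora44, from -0.96 to -0.15 for Snora61 and from 0.24 to 1.16 for Snord99. Snora24, inside Snhg8, had 3.07 and 2.92 CPM in WT and 1.34 and 2.49 in cKO, a change of -0.64 on the log2 scale (SE 0.43), while Snhg8 had -0.64 (SE 0.27, adjusted p = 0.208 by DESeq2) on counts that may in part come from the same fragments. Without cKO replicate 1 the changes were -0.26 for Snora24 and -0.42 for Snhg8, and without cKO replicate 2 they were -1.15 and -0.89.

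Of the 61 host genes, 3 were called lower and 0 higher in cKO by DESeq2, against 1.57% and 2.14% of all genes. Eef2, the host of Snord37, had 372 and 412 CPM in WT and 301 and 320 in cKO and fell by 0.34 on the log2 scale (SE 0.08, DESeq2 adjusted p = 0.00242). Rack1, which encodes a protein bound to the small ribosomal subunit, fell by 0.32 (SE 0.09, adjusted p = 0.0158). Nop56, the C/D box core protein and host of Snord57 and Snord110, had 72.8 and 71.6 CPM in WT and 59.1 and 58.1 in cKO and fell by 0.30 (SE 0.10, adjusted p = 0.0492). None of the 3 calls was made by edgeR (adjusted p = 0.130, 0.136 and 0.15), which called 0.086% of all genes decreased. With any library left out the calls for Rack1 (adjusted p = 0.127 to 0.751) and Nop56 (0.294 to 0.754) were lost. That for Eef2 was kept without WT replicate 1 (0.00193) and lost without WT replicate 2 (0.127), cKO replicate 1 (0.512) or cKO replicate 2 (0.127). The median over the 61 hosts was -0.07, with 42 below 0. It was -0.11 without WT replicate 1 and -0.03, with 35 below 0, without WT replicate 2. The snoRNA genes inside these hosts had log2 fold changes of -0.27 (Snord37), -0.00226 (Snord96a), 0.18 (Snord95), -0.64 (Snord57) and -0.70 (Snord110), with SE of 0.34 to 0.67.

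Of 29 listed genes of proteins that make or mature snoRNPs, 27 were in the table, all with a mean of at least 1 CPM. DESeq2 called 1 higher and 1 lower, against 2.14% and 1.57% of all genes. Parn, a poly(A)-specific ribonuclease that trims H/ACA RNA ends, had 61.5 and 62.7 CPM in WT and 76.9 and 79.2 in cKO and rose by 0.33 on the log2 scale (SE 0.10, DESeq2 adjusted p = 0.0236). The call for Parn was not made by edgeR (adjusted p = 0.126) and was lost with any library left out (adjusted p = 0.152 to 0.741). Nop56 was the gene that fell. The median of the 27 was 0.08, and the list summed to 773 and 796 CPM in WT and 803 and 805 in cKO. The other core genes of C/D box particles had log2 fold changes of 0.05 (Fbl, SE 0.15), 0.17 (Nop58, SE 0.12) and -0.02 (Snu13, SE 0.13), and those of H/ACA particles 0.12 (Dkc1, SE 0.21), 0.08 (Nhp2, SE 0.22), 0.47 (Gar1, SE 0.31) and -0.28 (Nop10, SE 0.36). Of these 7, none passed the test. With 1 library left out Nop58 and Gar1 stayed above 0, Nop10 ranged from -0.56 to -0.04, and the other 4 had values on both sides of 0, from -0.02 to 0.11 for Fbl, -0.12 to 0.09 for Snu13, -0.01 to 0.27 for Dkc1 and -0.0055 to 0.17 for Nhp2.

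Several other short structured RNAs, most of which like Snord118 have promoters of their own, but not all of those listed, were lower in cKO replicate 1 than in the other libraries. Of the 28 genes listed 14 were in the table, among them Bc1, which the table gives an interval of 1617698 bp and which is left aside here. Of the other 13, 1 was called lower and 0 higher by DESeq2, against 1.57% and 2.14% of all genes. Rmrp, the RNA of RNase MRP, had 17.5 and 15.8 CPM in WT and 5.65 and 11 in cKO and fell by 1.0 on the log2 scale (SE 0.26, DESeq2 adjusted p = 0.00536). The call was lost without WT replicate 1 (a fall of 0.93, adjusted p = 0.998), without WT replicate 2 (1.07, adjusted p = 0.771) and without cKO replicate 1 (0.59, adjusted p = 0.522) and kept without cKO replicate 2 (1.57, adjusted p = 1.81e-05), and edgeR did not make it (adjusted p = 0.2). Rpph1, the RNA of RNase P, had 614 and 615 CPM in WT and 267 and 510 in cKO. Rnu12, the U12 spliceosomal RNA, had 4.67, 3.82, 0.286 and 3.24 CPM, and Rnu3a, a U3 snoRNA gene outside the naming rule used here, had 1.97, 1.09, 0.130 and 0.956. Of the 13 genes, 3 were at 0 in all libraries, 7 had their lowest CPM in cKO replicate 1 and 2 had their highest there (Terc and Rnu73b, with 9 and 43.5 fragments). The part of this difference between the cKO libraries in the snoRNA values was not tested, and without cKO replicate 1 the median log2 fold change of the 94 snoRNA genes was -0.24 with 66 below 0.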

How the data were processed

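The members and gene lists were chosen with earlier results of these data known. Per the labels and the study's methods, the authors trimmed reads with fastp 0.13.1, aligned them with STAR 2.7.9a to GRCm38, and the processing notes also name featureCounts 1.6.1. The deposited values are expected counts, that is, fragments per gene over whole transcript intervals, with fractional values such as the splitting of a shared fragment would give. The counting options are not given in the sources used here. The authors added yeast RNA as a spike-in, which was not used here. 0 columns of values were left unmapped. Intervals in the table were compared with RefSeq GRCm38.p6, from which exons and sequences were read with samtools 1.23.1.

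Counts were rounded and all genes fitted with the DESeq2 1.42.0 Wald test (R 4.3.3), 2 WT against 2 cKO libraries, with Benjamini-Hochberg adjustment over the table. A call required an adjusted p under 0.05, a change of 1.2-fold or more and an average of 1 CPM. Alternatives were edgeR 4.0.16 (quasi-likelihood, after its expression filter), limma 3.58.1 voom, other scalings and filters, a replicate block and each library left out. Fits were checked on simulated counts with known changes. The log2 ratio to the host, the shortest same-strand gene of at least 1000 bp that contains the snoRNA gene and is no small RNA, used a pseudocount of 0.5 fragments, and the host count includes any fragments it shares with the snoRNA gene. Intervals are the log2 fold change ± 1.96 SE. Fragments carry no molecular identifiers and are not independent molecules. Replicates differed by a chi-square of 40.7 (WT) and 30.7 (cKO) per degree of freedom over 11625 genes and of 1.71 and 3.07 over the 94 snoRNA genes. This value rises with the count of a gene, so it does not compare the snoRNA genes with the others. On the log2 scale the median shift between replicates was larger over the 94 genes, as given above. The labels give separate samples, and p-values measure the spread between these samples.

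Genes named are the 10 snoRNA genes of highest mean CPM, the 6 highest and 6 lowest fold changes among those averaging 1 CPM, the 5 highest and 5 lowest densities relative to the host, up to 4 non-overlapping changes relative to the host in each direction, the members of hosts with 4 or more, the 3 on each side of the count minimum, and Tox4. Snord15a, Snord49b, Snord57, Snord65, Snord110 and Snora24 were added after their values were seen, as neighbours in a host. The host groups were set by the known product of each host. A few items that these rules or lists would name are not reported here.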

Additional observations from a re-analysis of the deposited data

How the results depend on the processing

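The count of snoRNA genes called was 0 in each direction under every setting run: edgeR with and without its expression filter, limma voom, DESeq2 with TMM factors, library totals, independent filtering off or a minimum of 1 CPM in every library, no CPM or fold criterion, a replicate block in DESeq2 and in edgeR, and each library left out. The settings without the expression filter, with the snoRNA counts taken off the host and with hosts of any length were chosen after seeing the data. The median log2 fold change kept its sign, from -0.37 to -0.17 with 1 library left out and from -0.35 to -0.25 otherwise. The summed share kept its sign in each of 7 alternatives. The change relative to the host ranged from -0.31 to 0.035 with 1 library left out and from -0.15 to -0.09 otherwise. Replicate numbers did not pair the libraries (correlation of deviations 0.00447 over 11625 genes). With the replicate block the median was -0.27 with 73 of 94 genes below 0, 0 genes called and 0 with an unadjusted p under 0.05, and DESeq2 called 121 genes higher and 72 lower in the whole table, against 249 and 182. edgeR called 48 and 10 with its filter and 494 and 344 without it, and limma voom 50 and 11. Of single genes, signs turned for Snord88c (log2 fold change -0.012 by limma voom, -0.00076 with the replicate block), Snord96a (0.0019 with library totals) and Snord2 (0.018 by limma voom, 0.0059 and 0.0049 with the replicate block in DESeq2 and edgeR). With 1 library left out the log2 fold change ranged from -0.025 to 0.67 for Snora75, -0.28 to 0.54 for Snord95, -0.023 to 0.33 for Snora31, -0.41 to 0.40 for Snord88c, -0.24 to 0.21 for Snord96a, -0.18 to 0.19 for Snord2, -0.96 to 0.65 for Snord71, -1.30 to 0.040 for Scarna9, -0.26 to 0.024 for Snora33, -0.78 to 0.14 for Snora44, -0.14 to 0.091 for Snord8 and -0.88 to 0.30 for Snord93. All of these changes were within 1 SE of 0 in the fit of 4 libraries, and the cause was not tested. The call for Tox4 was lost by edgeR, limma voom, with library totals, with filtering off, with the block and with any library left out. With the replicate block the calls for Rack1 (adjusted p = 0.211), Nop56 (0.40), Parn (0.267) and Rag1 (0.257) were lost, and those for Eef2 (0.0378), Rmrp (0.0195) and Cd8a (0.000648) remained. The count of fragments per gene limits what could be detected, with standard errors of 0.34 to 1.26.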

Other observations

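The 25 snoRNA rows below the count minimum included 6 listed at 0 in every library: Snord64, Snord116l1 and Snord116l2 in Snhg14, Snora35 in the serotonin receptor gene Htr2c, Snord123 in Snhg18, and Snord14d. The other 19 had 4 to 39.5 fragments over the 4 libraries. Of these, 6 had a count of 0 in cKO replicate 1 and a count above 0 in the other 3 libraries, and 0 genes were at 0 in another single library. The 6 were Snord13 (9, 14, 0 and 7 fragments in WT replicates 1 and 2 and cKO replicates 1 and 2), Snora20 (9.5, 9.5, 0 and 10), Snord73a (6.5, 12.5, 0 and 5), Snora74a (10, 2, 0 and 8.5), Snord38a (5, 3.5, 0 and 2.5) and Snord70 (2, 2.5, 0 and 3.5). These rows were chosen after their values were seen, and the share of other genes of such low counts with this pattern was not counted. cKO replicate 1 had the fewest fragments and the fewest detected genes of the libraries, 15693 against 17196 to 18539. Of the 19 rows with a count, 9 had a log2 fold change below 0. Scarna17, in no host gene of the table, varied widely between replicates, at 17, 47, 5 and 60 fragments, with the second replicate of each genotype the higher.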
